A study of Drosophila melanogaster with 24 samples.

Results

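The genes described here are 9 genes of fatty acid and triglyceride synthesis, taken by their names FASN1, FASN2, ACC, ATPCL, Acsl, SREBP, mdy, Lpin and Desat1 from the 12126 features in the table of all 24 libraries. All 9 were found, and all 9 passed the filter on low values in each of the 15 comparisons described here. RNA was sequenced from the heads and thoraces of female flies after 3 days on their diet, with 25 flies in a library and 3 biological replicates in each of 8 groups. The flies were wDah, an outbred white-eyed control strain, or Gcn2 mutants, in which a white marker gene stands in place of the whole open reading frame of the kinase GCN2. The mutant is a single null allele that was crossed back into wDah. Both genotypes received Yaa, a chemically defined diet whose amino acids follow the composition of yeast, or the same diet without arginine (-R), without methionine (-M) or without any amino acid (-All). All diets thus shared the same sugar, lipid and vitamin base, and the tissue, sex and time were the same in all groups. The amount eaten was not the same. The paper reports that wDah flies fed more under prolonged -R and -M, but not on -All. It reports very low feeding of mutants on -R and increased feeding on -M. Diet composition and food intake thus cannot be told apart here, and the part of intake in the results was not tested. The comparison of diets within a genotype addresses what amino acid deprivation does to these transcripts, and the comparison of genotypes addresses which of these changes depend on GCN2.

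Fatty acids are built in the cytosol from acetyl-CoA, which ATP citrate lyase (ATPCL) releases from citrate. Acetyl-CoA carboxylase (ACC) makes malonyl-CoA in the committed step, fatty acid synthase (FASN1, FASN2) extends the chain, and the stearoyl-CoA desaturase Desat1 introduces a double bond. Acsl joins long-chain fatty acids to coenzyme A, the phosphatidate phosphatase Lpin supplies diacylglycerol, and mdy, the fly diacylglycerol acyltransferase 1, adds the last acyl chain to form triglyceride. SREBP is a membrane-bound transcription factor of lipogenic genes, which flies activate by cleavage when phosphatidylethanolamine is scarce. The fat body, which in flies combines roles of liver and adipose tissue, is the main site of this pathway, and oenocytes use fatty acid synthases for the hydrocarbons of the cuticle.

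The values are normalized counts, which are read counts divided by a size factor of each library, and they summed to between 20.9 and 27.5 M per library. The spacing of low values gave estimates of 15.8 to 28.4 M assigned reads per library (median 24.3). Gcn2 itself held 655 ± 38.2 normalized counts in wDah libraries (SD, n = 12) and 141 ± 22.3 in mutant libraries (SD, n = 12), or 21.5% of the control, without overlap between the genotypes. Gcn2 overlaps PNPase on the opposite strand, so part of the remaining count is uncertain. Markers of photoreceptors, flight muscle, neurons, fat body and gut were present in all groups. In wDah -M replicate 1, wDah -All replicate 1, Gcn2 Yaa replicate 2, Gcn2 -R replicate 1 and Gcn2 -M replicate 2, ovary genes stood above the other replicates. Their median log2 value was 2.47 to 6.25 above the other replicates, and the next highest library was Gcn2 -All replicate 1 (1.85). Of 16 ovary genes listed, 5 were in the table. Ovary RNA was not confined to these libraries, since wDah -All replicate 3 had an ovary sum of 1467 and was kept. Values without the 5 ovary-rich libraries are given for some results, and the counts of called genes that changed are given at the end. The shares of all genes called without these libraries are not given. Gcn2 -R replicate 1 also had the lowest sum of 4 neuron markers (8768, against 19270 and 20495 in the other replicates). All tests used limma and the scale log2(normalized count + 1), and a gene was called at a Benjamini-Hochberg adjusted p under 0.05 over all genes tested. In bulk libraries, fewer cells of a type and less RNA per cell cannot be told apart.

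Levels were compared between genes in FPKM, a unit per transcript length and library size. Desat1 was the most abundant, with a mean of 1715 FPKM over the 24 libraries, followed by FASN1 with 303 FPKM and Acsl with 189 FPKM. Lpin (110 FPKM), ACC (81.5 FPKM), SREBP (68.8 FPKM), ATPCL (65.3 FPKM) and mdy (38.1 FPKM) came next. FASN2, the second fatty acid synthase, had 2.18 FPKM and ranged most widely, by 9.67-fold between its lowest and highest library. FASN1 varied by 8.12-fold, Desat1 by 3.98-fold, ACC by 3.55-fold and mdy by 3.53-fold, while SREBP varied by 1.54-fold. In the BDGP6.54 annotation FASN2 (chromosome 2L, 3043947 to 3056143, plus strand) and FASN1 (2L, 3056598 to 3068177, plus strand) are neighbours 454 bases apart. FASN2 overlaps the small nuclear RNA genes snRNA:LU and snRNA:U5:23D on the same strand, so its value is uncertain where these share exons. Desat1 lies on 3R (12439600 to 12447616, plus strand) and overlaps no other gene. The gene bodies of ACC (2R, 7974115 to 7991862, minus strand), ATPCL (2R, 15993531 to 16001290, minus strand), Acsl (2R, 8665813 to 8683022, plus strand), SREBP (3L, 19793935 to 19798979, plus strand), mdy (2L, 16816660 to 16826964, plus strand) and Lpin (2R, 8136986 to 8156654, minus strand) each overlap at least 1 other gene, so reads from the overlaps leave their values uncertain where exons are shared.

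**Figure D1:**
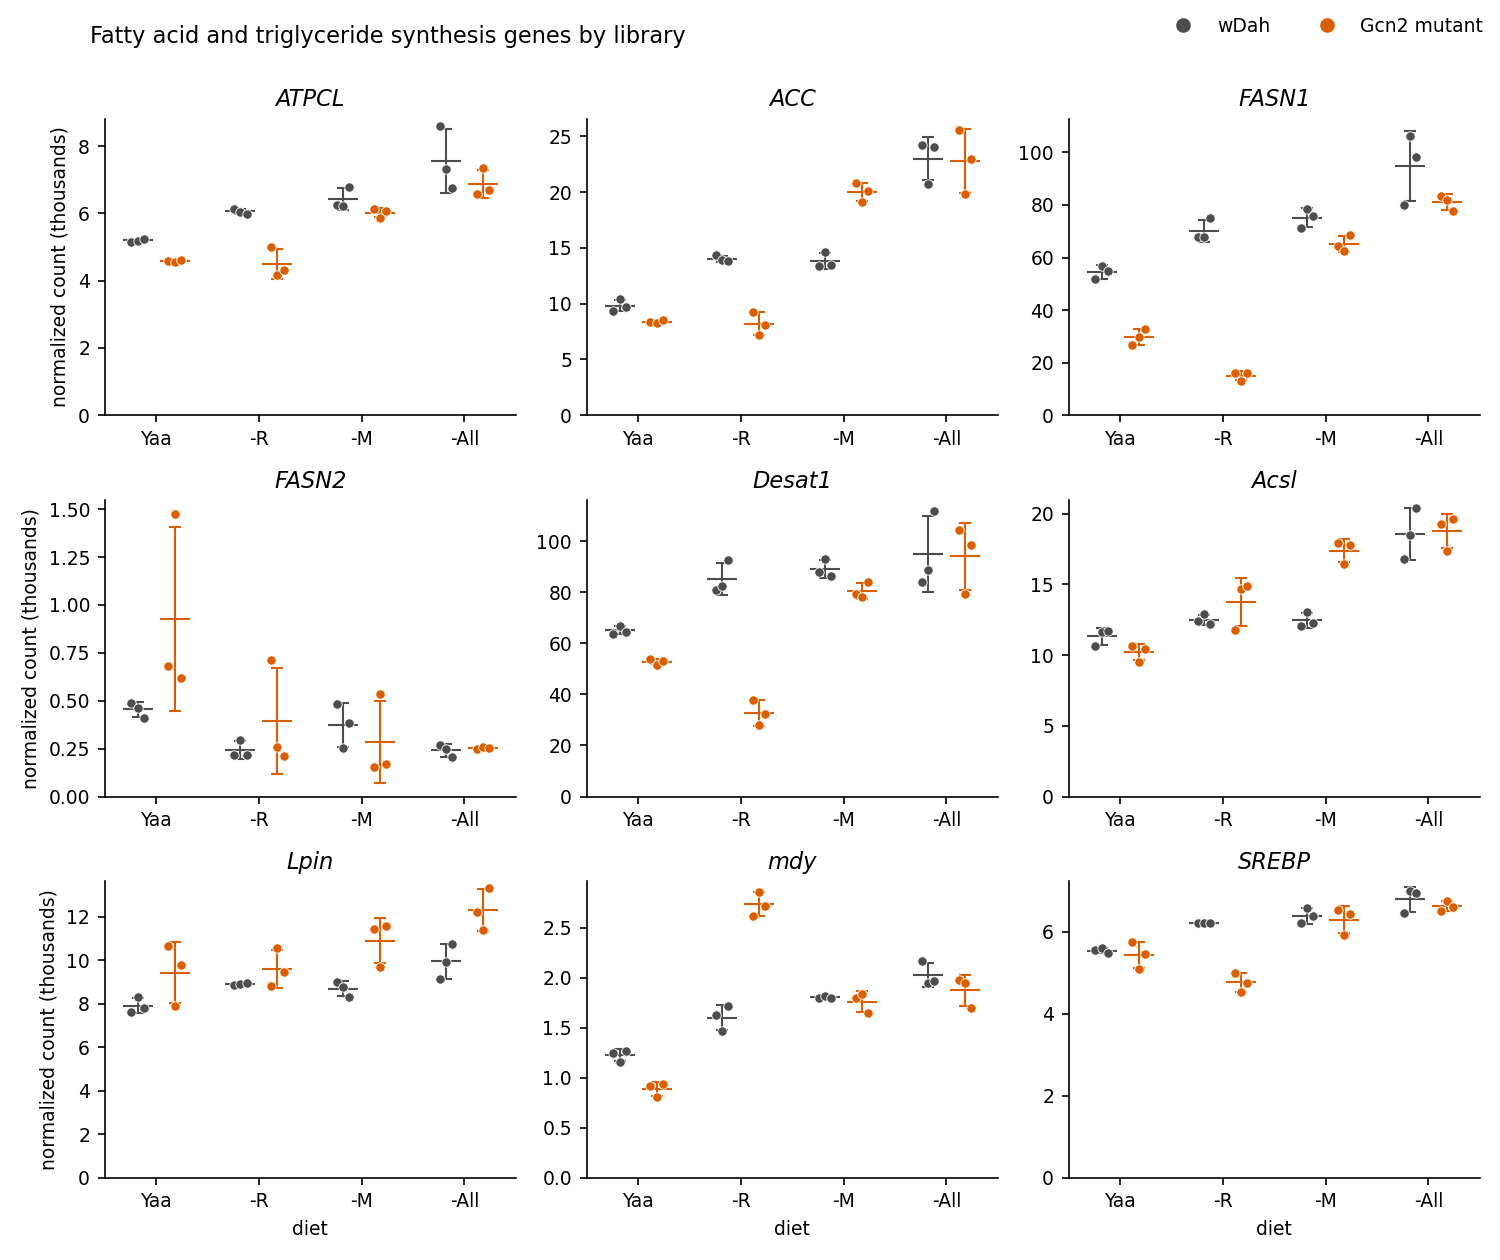
Normalized counts (y axis, from 0, scaled as its label says) of the 9 genes in each of the 24 libraries, by diet (x axis) and genotype (colour); points are libraries, horizontal marks are means of 3 libraries and bars are SD. FASN1 and Desat1 were lowest and mdy was highest in the Gcn2 mutant on -R, while on -All the genotypes overlapped in all genes but Lpin.

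In wDah flies each deprivation raised most of the 9 transcripts, and their median change was largest on -All. On -R, 7 of the 9 genes rose and FASN2 fell, while 22.8% of the 10904 genes tested were called (13.8% higher and 8.98% lower). On -M, 6 rose and none fell, while 25.7% of 10912 genes were called (15.3% higher and 10.4% lower). On -All, 8 rose and FASN2 fell, while 35.4% of 10959 genes were called (19.7% higher and 15.7% lower). The median log2 fold change of the 9 genes was 0.22 on -R, 0.31 on -M and 0.53 on -All, beside -0.014, 0.0059 and -0.018 for all genes tested. After every library was scaled to a common sum of normalized counts, called rescaling here, the median of all genes shifted to -0.16, -0.087 and -0.30, and 4, 5 and 5 of the 9 genes were called higher. Over all genes, rescaling gave 874 higher and 3963 lower calls on -R, 1019 and 2304 on -M, and 941 and 5892 on -All. A single fit of all 24 libraries called 4 of the 9 genes on -R, and the share of all genes called by that fit is not given. Markers of other tissues moved with the diets as well. Of the fat body and yolk list, 5 of 5 genes tested were called higher on -R, 5 of 5 on -M and 6 of 6 on -All, and its sum was 3.01 to 3.41 M normalized counts on -All against 0.39 to 0.46 M on Yaa. Of 9 gut digestive enzymes tested, -R and -All each raised 7 and -M raised 5. The part of these tissues in the rise of the 9 genes was not tested.

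In Gcn2 mutants -M and -All raised most of the 9 genes as well, but -R split them. On -M, 6 of the 9 genes rose and none fell, while 11.0% of the 10945 genes tested were called (8.55% higher and 2.49% lower). On -All, 7 rose and FASN2 fell, while 14.1% of 10960 genes were called (10.6% higher and 3.54% lower). On -R, mdy and Acsl rose and FASN1 and Desat1 fell, while 21.9% of 10937 genes were called (17.3% higher and 4.60% lower). The call of Acsl on -R was marginal, and 2 genes (mdy and FASN1) were called without Gcn2 Yaa replicate 1 or without Gcn2 Yaa replicate 3. Without the ovary-rich libraries 6 genes were called on -R, with SREBP and FASN2 joining the lower ones. The shares of all genes called in these settings with fewer libraries are not given. After rescaling 4 of the 9 genes were called on -R, 6 on -M and 7 on -All, while the calls over all genes became 1538 higher and 1024 lower on -R, 653 and 1106 on -M, and 723 and 4265 on -All. The median log2 fold change of the 9 genes was -0.039 on -R, 0.61 on -M and 0.82 on -All, beside -0.028, -0.049 and -0.051 for all genes tested. The fat body and yolk list was called higher for 5 of 5 genes tested on -M and 6 of 6 on -All, with a sum of 3.01 to 3.84 M normalized counts on -All against 0.517 to 0.520 M on Yaa, and 5 of 5 oenocyte markers were called lower on -All. Their part in the changes of the 9 genes was not tested.

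**Figure D2:**
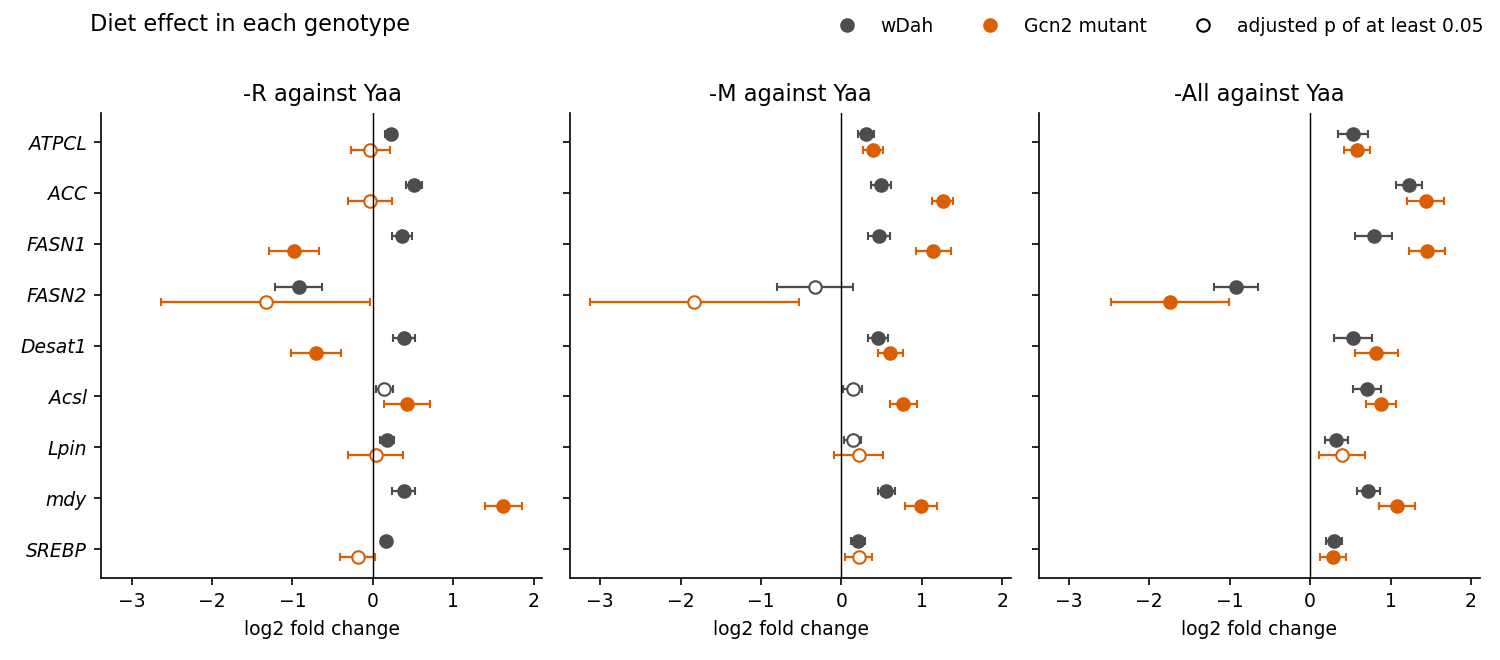
Log2 fold change (x axis) of each gene (y axis) on -R, -M and -All against Yaa in wDah flies (grey) and Gcn2 mutants (orange); bars are 95% confidence intervals from limma and open points had an adjusted p of at least 0.05. On -R the genotypes went apart, with FASN1 at 0.36 in wDah flies and -0.98 in mutants, while on -M and -All all points but FASN2 lay above 0.

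The difference of the diet effects between the genotypes was tested as an interaction. On -R it was called for 5 of the 9 genes, with 21.5% of the 11001 genes tested called (15.9% higher and 5.63% lower). FASN1, Desat1, ACC and SREBP responded less or in the opposite direction in mutants, and mdy responded more. On -M it was called for ACC, FASN1, Acsl and mdy, whose log2 fold changes were all larger in mutants, with 6.93% of 10985 genes called (4.21% higher and 2.71% lower, and 375 higher and 468 lower genes after rescaling). On -All it was called for none of the 9 genes and for 0.882% of 11000 genes (0.391% higher and 0.491% lower), while 3 of the 9 genes had an unadjusted p under 0.05 and FASN1 was called by the single fit of all 24 libraries and, in its own fit, without wDah -All replicate 2 (0.75, limma adjusted p = 0.049). Without the ovary-rich libraries the interaction with -R was called for 8 genes, with Acsl higher in addition (0.34, limma adjusted p = 0.0018). ATPCL (-0.34, limma adjusted p = 0.00017) and FASN2 (-0.55, limma adjusted p = 0.0445) were lower in addition. The share of all genes called in that setting is not given, so the gain has no background beside it. That setting drops the highest ATPCL and FASN2 values and the lowest Acsl value of mutants on -R. It has fewer libraries, so its p-values are not comparable with those of all libraries.

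**Figure D3:**
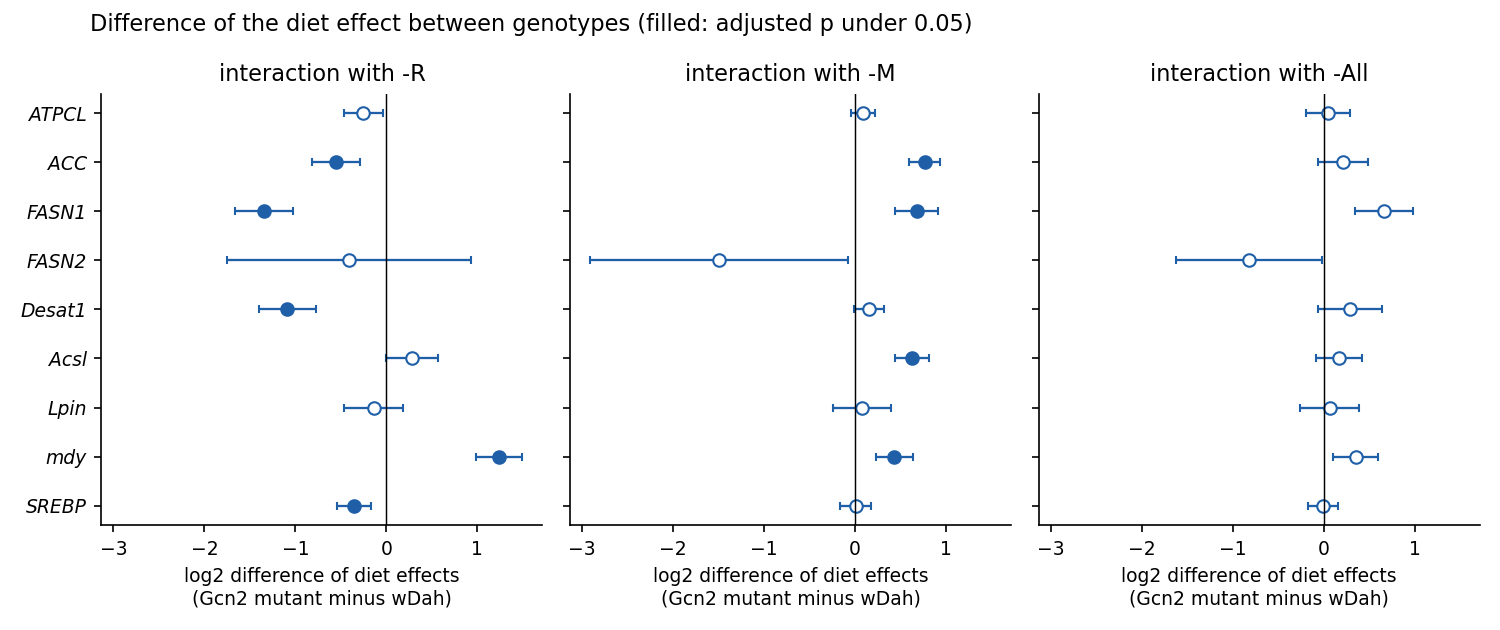
Difference of the log2 diet effect between genotypes (mutant minus wDah, x axis) for each gene (y axis) and diet; bars are 95% confidence intervals from limma and filled points had an adjusted p under 0.05. On -R mdy lay at 1.24 and FASN1 at -1.34, and on -M the 4 called genes lay between 0.43 and 0.77.

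Genotypes were also compared directly on each diet. On Yaa, FASN1, mdy and Desat1 were lower in mutants and none of the 9 genes was higher, with 2.69% of the 11006 genes tested called (1.38% higher and 1.31% lower). These calls were unequal, since FASN1 kept its call whichever of the 6 libraries was omitted, while mdy and Desat1 each lost theirs in 5 of those 6 fits. Without Gcn2 Yaa replicate 2, the ovary-rich library, 7 genes were called on Yaa, with ACC and ATPCL also lower and Lpin and FASN2 higher. The share of all genes called without that library is not given. On -R, 5 genes were lower in mutants (FASN1, Desat1, ACC, ATPCL and SREBP) and mdy was higher, with 45.8% of 10940 genes called (27.7% higher and 18.2% lower). Markers of several tissues were lower in mutants on -R as well. Called lower were 6 of 6 photoreceptor genes, 4 of 5 flight muscle genes, 9 of 10 gut digestive enzymes and 4 of 5 fat body and yolk genes. Of 4 neuron markers 1 was called lower, while 2 of 5 oenocyte markers were called higher. The part of these tissues in the differences of the 9 genes was not tested. The photoreceptor sum was 235429 to 263378 normalized counts in mutants on -R and 375848 to 402326 in wDah flies on -R. On -M, ACC, Acsl and Lpin were higher in mutants, with 23.1% of 10906 genes called (12.2% higher and 10.9% lower, and 1040 higher and 1486 lower genes after rescaling). On -All none of the 9 genes was called, with 1.07% of 10897 genes called (0.560% higher and 0.514% lower), 1 of the 9 at an unadjusted p under 0.05 and log2 differences between -0.22 and 0.31.

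FASN1, the abundant fatty acid synthase, had the largest called differences between genotypes on Yaa and on -R. In wDah flies it held 51770, 56844 and 55050 normalized counts on Yaa, 67740, 67856 and 75037 on -R, 71152, 78579 and 75957 on -M and 80150, 106075 and 98160 on -All. In mutants it held 26658, 29721 and 32634 normalized counts on Yaa, 16084, 13060 and 16009 on -R, 64524, 62528 and 68599 on -M and 83449, 81955 and 77671 on -All. Each deprived group lay above its Yaa group without overlap, except that the mutant -R libraries lay below all mutant Yaa libraries. On Yaa the mutant mean was 54.4% of the wDah mean, a log2 difference of -0.88 (SE 0.087, limma adjusted p = 0.0043). On -R it was 21.4% of the wDah mean, a log2 difference of -2.23 (SE 0.11, limma adjusted p = 3.2e-05). On -R the log2 fold change against Yaa was 0.36 (SE 0.056, limma adjusted p = 0.0023) in wDah flies and -0.98 (SE 0.13, limma adjusted p = 0.0032) in mutants, and the interaction was -1.34 (SE 0.14, limma adjusted p = 8.3e-05). On -M FASN1 rose by 0.46 on the log2 scale in wDah flies and by 1.14 in mutants, with an interaction of 0.68 (SE 0.11, limma adjusted p = 0.0030). The mutant value on -M nevertheless stayed below the wDah range, at a log2 difference of -0.21 that was not called (limma adjusted p = 0.070, and 0.029 after rescaling). On -All FASN1 rose by 0.79 on the log2 scale in wDah flies and by 1.45 in mutants, and the interaction of 0.67 was not called (limma adjusted p = 0.072, and 0.020 with a single fit of all 24 libraries).

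The fall of FASN1 in mutants on -R came with a lower sum of gut markers. The sum of 10 gut digestive enzymes was 71768 to 106568 normalized counts in mutants on -R and 167015 to 194681 in mutants on Yaa, and 7 of the 10 genes were called lower. In wDah flies the same sum was 161506 to 180820 on Yaa and 272153 to 294448 on -R. The sum of 6 fat body and yolk genes was 1.30 to 1.44 M in wDah flies on -R and 0.59 to 0.91 M in mutants on -R, against 0.39 to 0.46 M and 0.517 to 0.520 M on Yaa. No gene of either list was at 0 in any group mean, and the part of gut or fat body RNA in the FASN1 result was not tested.

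Desat1, the main desaturase of the fly, followed FASN1 at a smaller scale. Libraries of wDah flies had 63857, 66945 and 64584 normalized counts on Yaa and 80723, 82407 and 92547 on -R. Mutant libraries had 53854, 51625 and 53084 normalized counts on Yaa and 37884, 28113 and 32160 on -R. The diet moved wDah libraries up and mutant libraries down, and none of these 4 groups overlapped. The log2 fold change on -R was 0.39 (SE 0.058, limma adjusted p = 0.0020) in wDah flies and -0.70 (SE 0.13, limma adjusted p = 0.012) in mutants. The call in mutants was lost without Gcn2 Yaa replicate 1 (limma adjusted p = 0.057) and without Gcn2 Yaa replicate 3 (limma adjusted p = 0.053), while the interaction of -1.09 (SE 0.14, limma adjusted p = 0.00033) held in all settings. On -M Desat1 held 88032, 93215 and 86280 normalized counts in wDah flies and 79433, 78035 and 83942 in mutants, with log2 fold changes of 0.45 and 0.61 against Yaa. On -All it held 84126, 88656 and 111939 normalized counts in wDah flies and 104367, 79225 and 98650 in mutants, and the genotypes overlapped.

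ACC, which makes malonyl-CoA, rose strongly wherever all amino acids were missing. The values for wDah flies were 9364, 10404 and 9726 normalized counts on Yaa, 14358, 13911 and 13864 on -R, 13388, 14629 and 13434 on -M and 24192, 20775 and 24057 on -All. For mutants the values were 8322, 8258 and 8545 normalized counts on Yaa, 9289, 7202 and 8095 on -R, 20808, 19162 and 20121 on -M and 25564, 19870 and 23013 on -All. The mutant -M libraries thus stood close to the -All libraries of both genotypes and above all wDah -M libraries, while the mutant -R libraries overlapped with mutant Yaa. On -All the log2 fold change was 1.22 (SE 0.070, limma adjusted p = 1.8e-05) in wDah flies and 1.44 (SE 0.098, limma adjusted p = 0.00015) in mutants. On -M it was 0.49 (SE 0.053, limma adjusted p = 0.00047) in wDah flies and 1.26 (SE 0.057, limma adjusted p = 5.4e-05) in mutants, with an interaction of 0.77 (SE 0.077, limma adjusted p = 0.00012). On -R it was 0.52 (SE 0.043, limma adjusted p = 8.8e-05) in wDah flies and -0.039 (SE 0.11, limma adjusted p = 0.82) in mutants, with an interaction of -0.55 (SE 0.12, limma adjusted p = 0.0075). The 95% confidence interval of the mutant value on -R was -0.31 to 0.23.

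ATPCL, which releases acetyl-CoA from citrate, moved in the same directions as ACC but less. In wDah flies it held 5158, 5189 and 5231 normalized counts on Yaa, 6142, 6040 and 5993 on -R, 6258, 6227 and 6787 on -M and 8586, 7323 and 6751 on -All. In mutants it held 4581, 4540 and 4625 normalized counts on Yaa, 5012, 4174 and 4319 on -R, 6131, 5868 and 6056 on -M and 6575, 7341 and 6694 on -All. All wDah groups on deprived diets lay above wDah Yaa, and in mutants only -M and -All lay above Yaa. The log2 fold changes were 0.22, 0.31 and 0.53 on -R, -M and -All in wDah flies, which were all called, and -0.030, 0.39 and 0.58 in mutants, where -M and -All were called. On -R the mutants were lower than wDah flies by a log2 difference of -0.43 (SE 0.087, limma adjusted p = 0.0085), and the interaction with -R was -0.25 (limma adjusted p = 0.089). After rescaling, the call in wDah flies on -R was lost (log2 fold change 0.076, limma adjusted p = 0.062).

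mdy, which catalyses the last step of triglyceride synthesis, was highest of all groups where FASN1 and Desat1 were lowest. Libraries of wDah flies had 1247, 1156 and 1272 normalized counts on Yaa, 1623, 1466 and 1713 on -R, 1795, 1821 and 1793 on -M and 2169, 1950 and 1961 on -All. Mutant libraries had 913, 811 and 936 normalized counts on Yaa, 2619, 2859 and 2717 on -R, 1800, 1839 and 1643 on -M and 1975, 1948 and 1698 on -All. The 3 mutant -R libraries lay above all 21 other libraries, and the 3 mutant Yaa libraries lay below all others. On -R mdy rose by 0.38 on the log2 scale (SE 0.063, limma adjusted p = 0.0032) in wDah flies and by 1.62 (SE 0.098, limma adjusted p = 0.00015) in mutants, a 3.08-fold change of the mutant mean. The interaction was 1.24 (SE 0.12, limma adjusted p = 3.1e-05), and it stayed between 1.18 and 1.31 in all other settings. On -M mdy rose by 0.56 in wDah flies and by 0.99 in mutants on the log2 scale, with an interaction of 0.43 (SE 0.093, limma adjusted p = 0.017), which was lost without wDah Yaa replicate 3 (limma adjusted p = 0.053). On Yaa it was lower in mutants by a log2 difference of -0.47 (SE 0.078, limma adjusted p = 0.032), and omitting any of 5 of the 6 libraries ended that call. On -M and -All the ranges of the genotypes overlapped.

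**Figure D4:**
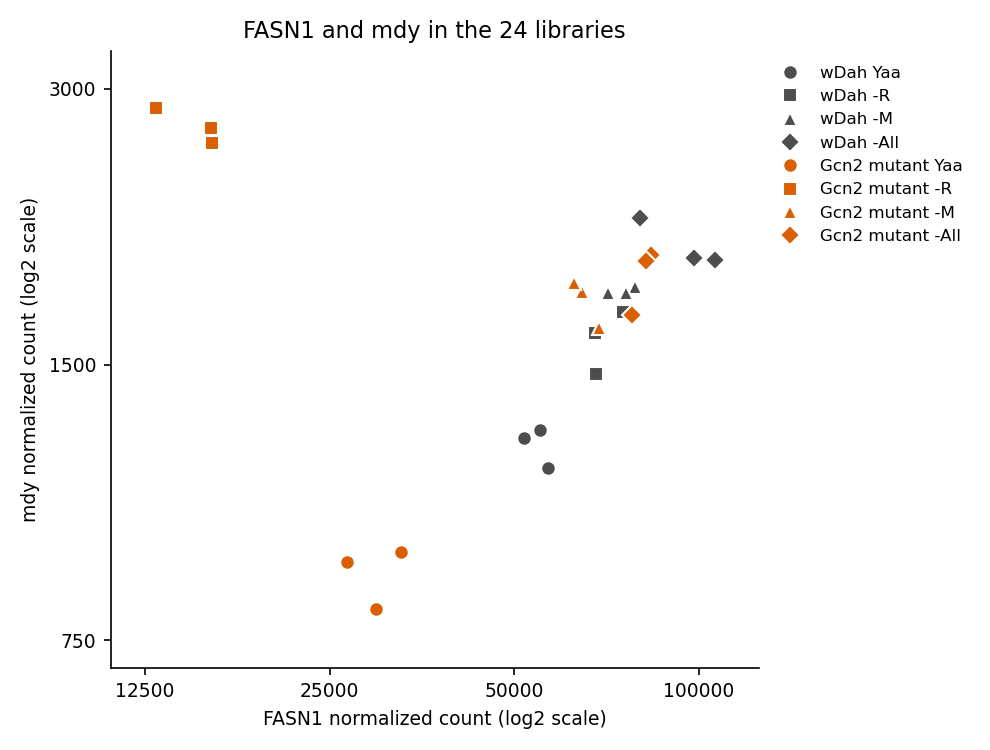
Normalized count of mdy (y axis, log2 scale) against that of FASN1 (x axis, log2 scale) in each of the 24 libraries, with colour for genotype and shape for diet. The mutant -R libraries sit alone at the upper left, with FASN1 between 13060 and 16084 and mdy between 2619 and 2859.

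Over the 24 libraries the genes fell into patterns that the groups share, given here as descriptions because libraries of a group are alike by design. Pearson's r of log2(normalized count + 1) was 0.97 between FASN1 and Desat1, 0.93 between FASN1 and SREBP and 0.94 between SREBP and Desat1. Between FASN1 and mdy it was -0.055 over the 24 libraries and 0.93 over the 21 libraries other than those of mutants on -R. Desat1 was the gene most like FASN1 over the 24 libraries among all genes that averaged 10 normalized counts or more, followed by CG12016 (r = 0.96), CG13315 (0.96), dsb (0.95) and CG13607 (0.95). The genes most like SREBP were the amylase gene Amy-p (r = 0.97), CG1774 (0.96), the peroxisomal acyl-CoA oxidase Acox57D-p (0.94), Cyp18a1 (0.94) and Desat1 (0.94).

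SREBP, the transcription factor, moved within a narrow range. The values for wDah flies were 5553, 5608 and 5479 normalized counts on Yaa, 6212, 6226 and 6218 on -R, 6209, 6597 and 6389 on -M and 6453, 6995 and 6962 on -All. For mutants the values were 5749, 5098 and 5462 normalized counts on Yaa, 5005, 4539 and 4760 on -R, 6548, 5932 and 6430 on -M and 6515, 6760 and 6620 on -All. The mutant -R libraries were the lowest group and lay below all other libraries. On -R SREBP rose in wDah flies by 0.17 on the log2 scale (SE 0.028, limma adjusted p = 0.0037), a call that was lost after rescaling (0.018, limma adjusted p = 0.62) and in the single fit of all 24 libraries (limma adjusted p = 0.058). In mutants on -R its log2 fold change was -0.19 (SE 0.091, limma adjusted p = 0.18), and -0.27 (limma adjusted p = 0.0064) without the ovary-rich libraries. That fit drops the highest SREBP value of mutants on -R (replicate 1) and the lowest on Yaa (replicate 2). It has fewer libraries and a smaller spread, so its p-value is not comparable with that of all libraries. The interaction with -R was -0.35 (SE 0.086, limma adjusted p = 0.013), and on -R mutants were lower than wDah flies by a log2 difference of -0.38 (SE 0.067, limma adjusted p = 0.0048). The rises in wDah flies on -M (0.21) and -All (0.29) were called, but rescaling ended both calls and left log2 fold changes of 0.11 (limma adjusted p = 0.057) and 0.0097 (limma adjusted p = 0.85). In mutants on -All the called log2 fold change of 0.29 (limma adjusted p = 0.033) turned to -0.034 after rescaling. That call was also lost with the replicate block (limma adjusted p = 0.097). It was lost too without Gcn2 Yaa replicate 1, Gcn2 Yaa replicate 3 or any single mutant -All library (limma adjusted p between 0.053 and 0.13). The SREBP gene also hosts the microRNA gene mir-33.

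Acsl, which activates long-chain fatty acids, rose on -All in both genotypes and on -M in mutants. In wDah flies it held 10626, 11630 and 11730 normalized counts on Yaa, 12066, 13075 and 12299 on -M and 16799, 18474 and 20431 on -All. In mutants it held 10649, 9544 and 10435 normalized counts on Yaa, 17920, 16433 and 17824 on -M and 19294, 17376 and 19623 on -All. All mutant -M libraries lay above all wDah -M libraries. The log2 fold change on -M was 0.77 (SE 0.069, limma adjusted p = 0.00072) in mutants and 0.14 (SE 0.051, limma adjusted p = 0.077) in wDah flies, with an interaction of 0.63 (SE 0.086, limma adjusted p = 0.0010). On -All it was 0.71 (SE 0.075, limma adjusted p = 0.00036) in wDah flies and 0.88 (SE 0.079, limma adjusted p = 0.00045) in mutants. On -R it held 12403, 12877 and 12220 normalized counts in wDah flies and 11810, 14665 and 14860 in mutants, where all 3 lay above the mutant Yaa libraries and replicate 1 was the lowest. The log2 fold change in mutants on -R of 0.43 had a limma adjusted p of 0.0498, which ranged from 0.00034 to 0.15 over the other settings.

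The larger responses to -M in mutants came with a larger rise of the fat body list. The sum of its 6 genes on -M was 0.60 to 0.66 M normalized counts in wDah flies and 1.71 to 1.92 M in mutants, against 0.39 to 0.46 M and 0.517 to 0.520 M on Yaa. The interaction with -M was called higher for 4 of the 5 genes of that list that were tested. The part of this list in the results of ACC, FASN1, Acsl and mdy was not tested. Levels on -M itself were higher in mutants for ACC and Acsl, by log2 differences of 0.54 and 0.48. For FASN1 and mdy the log2 differences on -M were -0.21 and -0.036 and were not called. On Yaa FASN1 and mdy were lower in mutants, with log2 differences of -0.88 and -0.47.

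Lpin, the phosphatidate phosphatase, was called in 2 of the 6 comparisons of a diet with Yaa. Libraries of wDah flies had 7610, 8294 and 7818 normalized counts on Yaa, 8860, 8899 and 8972 on -R, 9016, 8771 and 8305 on -M and 9156, 9921 and 10740 on -All. Mutant libraries had 10641, 7888 and 9769 normalized counts on Yaa, 8812, 10548 and 9472 on -R, 11437, 9706 and 11549 on -M and 12204, 11403 and 13332 on -All. The mutant libraries spread widely on Yaa, where the ovary-rich replicate 2 was the lowest, and they overlapped with mutant -R and -M. In wDah flies Lpin rose on -R by 0.17 (SE 0.037, limma adjusted p = 0.012) and on -All by 0.33 (SE 0.064, limma adjusted p = 0.0062) on the log2 scale. Both calls were lost after rescaling (limma adjusted p = 0.59 and 0.54). On -M mutants were higher than wDah flies by a log2 difference of 0.32 (SE 0.073, limma adjusted p = 0.016), a call that ended without wDah -M replicate 3, Gcn2 -M replicate 1 or Gcn2 -M replicate 3 (limma adjusted p = 0.061, 0.056 and 0.054). In mutants on -All the log2 fold change of Lpin was 0.39 (limma adjusted p = 0.083), and it was called in the single fit of all 24 libraries (limma adjusted p = 0.0047). On -R and -M no effect on Lpin was called in mutants.

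FASN2, the neighbour of FASN1, moved the other way from the other genes in every diet comparison in which it was called. The values for wDah flies were 488, 463 and 412 normalized counts on Yaa, 216, 294 and 215 on -R, 483, 251 and 383 on -M and 271, 246 and 204 on -All. For mutants the values were 680, 1477 and 620 normalized counts on Yaa, 715, 260 and 209 on -R, 153, 533 and 169 on -M and 249, 260 and 255 on -All. The ovary-rich library was the highest of its group in all 5 groups that hold one, by 1.20 to 3.32 times the mean of the other replicates. Other libraries with ovary genes departed from this. The ovary sum of wDah -All replicate 3 (1467) exceeded those of wDah -M replicate 1 (1238) and Gcn2 -M replicate 2 (1422), yet its FASN2 value was the lowest of its group. Gcn2 -All replicate 1 had the highest ovary sum of its group (525) and the lowest FASN2 value. The sum of 5 oenocyte markers was highest in the same 5 ovary-rich libraries, with 31748 in Gcn2 Yaa replicate 2 against 14007 and 14227 in the other replicates. The oenocyte list also fell with diet, with 5 of 5 genes called lower on -R and on -All in wDah flies and on -All in mutants, and its part in the FASN2 values was not tested. The log2 fold change of FASN2 in wDah flies was -0.92 on -R (SE 0.13, limma adjusted p = 0.0013) and -0.92 on -All (SE 0.12, limma adjusted p = 0.00084), calls that the single fit of all 24 libraries did not make (limma adjusted p = 0.25 and 0.15). In mutants it was -1.74 on -All (SE 0.31, limma adjusted p = 0.010). On -M in mutants it was -1.83 (SE 0.54, limma adjusted p = 0.087) with all libraries, -2.01 (limma adjusted p = 5.9e-05) without the ovary-rich libraries and unchanged in size but called (limma adjusted p = 0.0022) with the replicate number as a block. On -R in mutants it was -1.33 (limma adjusted p = 0.12), and -1.47 (limma adjusted p = 0.00012) without the ovary-rich libraries. Both fits without these libraries lose the highest FASN2 value of each group. They have fewer libraries and a smaller spread, so their p-values are not comparable with those of all libraries. In the blocked fit on -M, replicate 2 was the ovary-rich library with the highest FASN2 value on both Yaa and -M. Replicate number and ovary content thus cannot be told apart in that call.

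The deprivations of single amino acids were compared with each other directly. In wDah flies none of the 9 genes differed between -R and -M at an adjusted p under 0.05, with 14.5% of 10913 genes called (6.77% higher and 7.70% lower, and 437 higher and 1339 lower genes after rescaling), and 2 of the 9 had an unadjusted p under 0.05. The log2 differences of the 9 genes lay between -0.59 and 0.036. In mutants 6 of the 9 genes differed, with 36.8% of 10874 genes called (23.7% higher and 13.1% lower, and 2884 higher and 993 lower genes after rescaling). FASN1 was lower on -R than on -M by a log2 difference of -2.12 (SE 0.11, limma adjusted p = 5.3e-05), Desat1 by -1.31, ACC by -1.30, ATPCL by -0.42 and SREBP by -0.40. mdy was higher on -R by 0.63 on the log2 scale (SE 0.079, limma adjusted p = 0.0015). The sum of the gut digestive enzymes was 71768 to 106568 normalized counts in mutants on -R and 254066 to 276086 on -M, and its part in these differences was not tested.

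A list of 36 other genes around the pathway gave the setting of these changes. All 36 were found in the table. In wDah flies 16 rose and 4 fell on -R, 11 rose and 2 fell on -M, and 18 rose and 5 fell on -All. In mutants 11 rose and 2 fell on -R, 13 rose and 3 fell on -M, and 15 rose and 4 fell on -All. Of all genes tested in wDah flies, 13.8% rose and 8.98% fell on -R, 15.3% and 10.4% on -M, and 19.7% and 15.7% on -All. In mutants 17.3% rose and 4.60% fell on -R, 8.55% and 2.49% on -M, and 10.6% and 3.54% on -All.

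The 8 genes that supply acetyl-CoA, citrate and NADPH moved together on -All and, in mutants, on -M. All 8 rose on -All in both genotypes and on -M in mutants, while 5 rose on -R and 4 on -M in wDah flies and 2 on -R in mutants. Their median log2 fold change on -R, -M and -All was 0.37, 0.20 and 0.80 in wDah flies and 0.19, 0.76 and 0.99 in mutants. The interaction with -M was called higher for 7 of the 8. AcCoAS, which makes acetyl-CoA from acetate, held 20603, 23094 and 21020 normalized counts on -M in wDah flies and 27393, 26240 and 25640 in mutants, from 11091 to 11667 and 7927 to 9198 on Yaa. Its log2 fold change on -M was 0.92 in wDah flies and 1.66 in mutants, with an interaction of 0.74 (SE 0.093, limma adjusted p = 0.00052). On -R AcCoAS rose by 0.93 in wDah flies and had a log2 fold change of 0.20 (limma adjusted p = 0.26) in mutants, where it was lower than in wDah flies by a log2 difference of -1.18. Idh, the NADP-dependent isocitrate dehydrogenase, departed from that pattern on -R. It held 14603, 15040 and 13292 normalized counts on -R in wDah flies and 23988, 22601 and 20491 in mutants, with log2 fold changes of 0.68 and 1.30 against Yaa and an interaction of 0.62 (SE 0.10, limma adjusted p = 0.0013).

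Men-b, a malic enzyme that yields NADPH, held 8871, 8298 and 8261 normalized counts on -R in wDah flies and 3459, 4506 and 5045 in mutants, from 5249 to 5719 and 4870 to 5263 on Yaa. Its interaction with -R was -0.89 (SE 0.16, limma adjusted p = 0.0028), the direction seen for FASN1 and Desat1.

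Of 13 genes of glycerolipid synthesis, 6 were called higher and 1 lower on -R in mutants, and 5 were called higher and 1 lower on -R in wDah flies, beside 17.3% and 13.8% of all genes called higher. The gene called lower in mutants was CG1946, a relative of Dgat2. Dgat2, the other type of diacylglycerol acyltransferase, held 428, 795 and 730 normalized counts in mutants on -R. It held 32.3 to 53.9 in mutants on Yaa and 14.7 to 31.3 in wDah flies on -R, and at most 53.9 in all libraries outside that group. Its log2 fold change in mutants on -R was 3.88 (SE 0.30, limma adjusted p = 0.00036) and the interaction was 3.92 (SE 0.46, limma adjusted p = 0.00016). CG1941, a related gene, rose in mutants on -R by 1.38 on the log2 scale (SE 0.17, limma adjusted p = 0.0022), to 236 to 265 normalized counts. The genes are similar in sequence, and reads that match both could be assigned to either, so their separate values are uncertain. Gpat4, a glycerol-3-phosphate acyltransferase, held 2608, 2458 and 2414 normalized counts in mutants on -R and at most 1842 in all other libraries, with an interaction of 0.53 (SE 0.079, limma adjusted p = 0.00079). mino, another glycerol-3-phosphate acyltransferase, rose on each of the 3 diets in both genotypes, with log2 fold changes between 0.59 and 1.23. hll, an acyl-CoA synthetase, rose in all 6 comparisons of a diet with Yaa, with log2 fold changes between 2.31 and 4.29 from 20.7 to 33.9 normalized counts in wDah flies and 3.90 to 12.9 in mutants on Yaa. bgm, a very-long-chain acyl-CoA synthetase, held 7328, 7183 and 7228 normalized counts in mutants on -R and at most 2826 in all other libraries, with an interaction of 1.92 (SE 0.17, limma adjusted p = 2.1e-05).

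**Figure D5:**
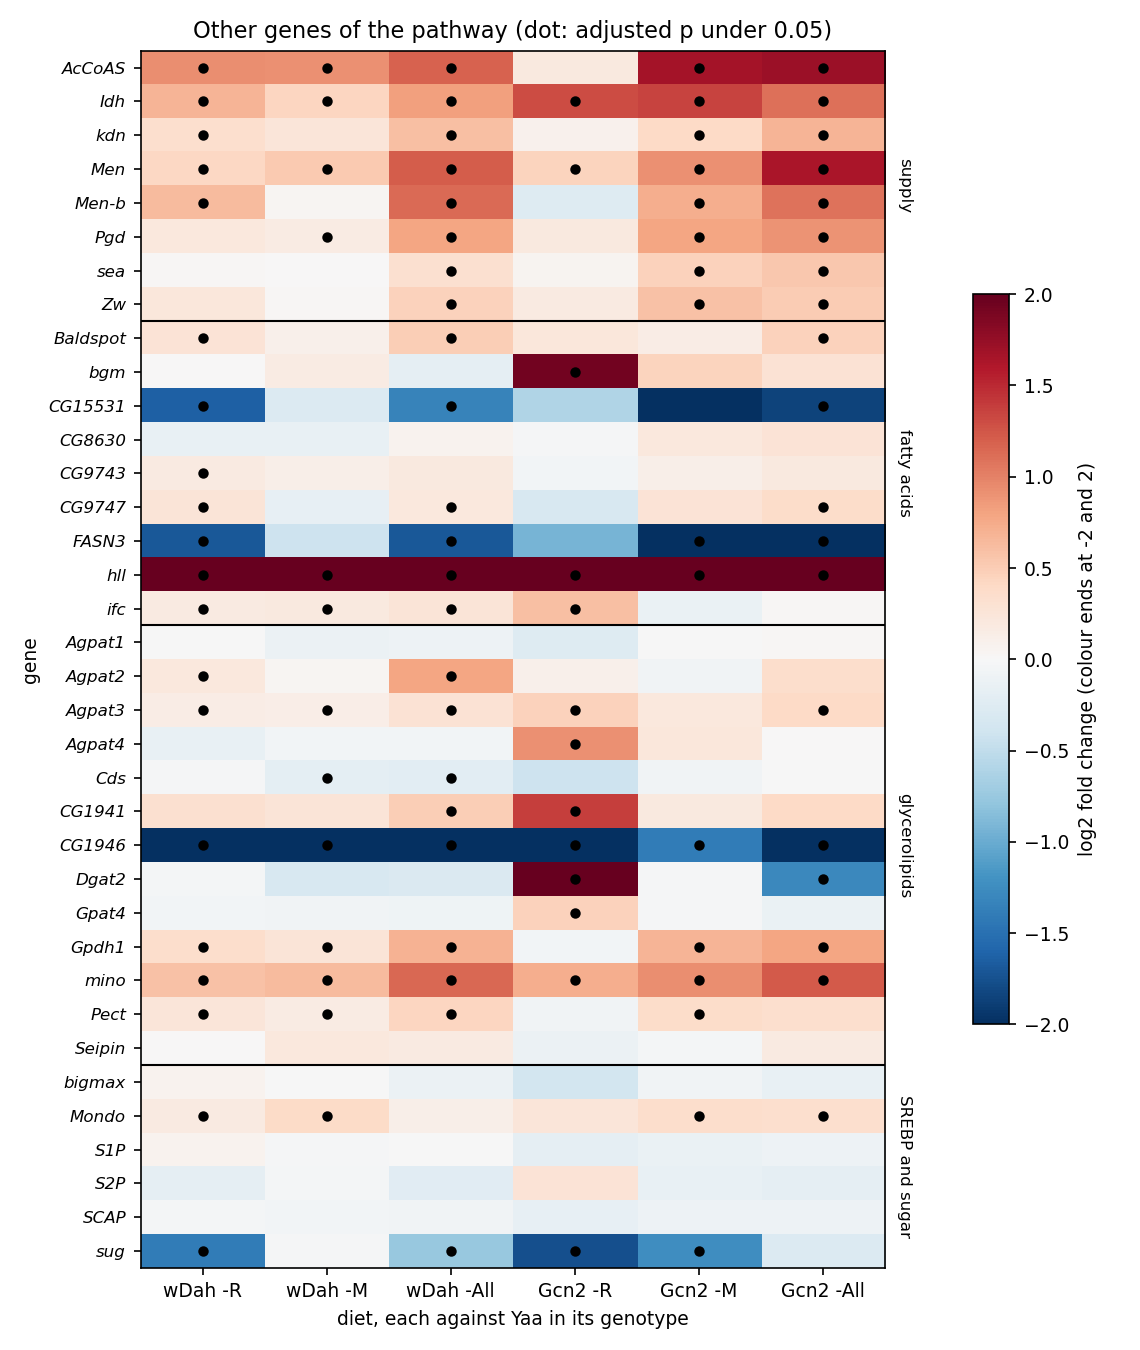
Log2 fold change (colour, which ends at -2 and 2) of the 36 other pathway genes (rows, in 4 lists) on each diet against Yaa in each genotype (columns); dots mark an adjusted p under 0.05. The 8 supply genes are all called higher on -All in both genotypes and on -M in mutants, and Dgat2, CG1941, Gpat4 and bgm are called higher in the column of mutants on -R.

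Of the 6 genes of SREBP processing and sugar sensing, at most 1 rose and 1 fell in any comparison of a diet with Yaa. SCAP, S1P and S2P, which carry and cleave SREBP, were called in none of the 6 comparisons of a diet with Yaa. S2P was nevertheless higher in mutants than in wDah flies on -R by a log2 difference of 0.53 (SE 0.097, limma adjusted p = 0.0057), and its interaction with -R was 0.46 (SE 0.12, limma adjusted p = 0.021). sug, a transcription factor of sugar responses, held 464, 435 and 559 normalized counts on -R in wDah flies and 1164 to 1455 on Yaa, and 268, 287 and 247 on -R in mutants and 770 to 1078 on Yaa. On -M its counts were 1139 to 1482 for wDah libraries and 378 to 392 for mutant libraries, a log2 difference between genotypes of -1.70. Mondo, a transcription factor that senses sugar, was 0.20 lower on the log2 scale on -R than on -M in wDah flies.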

How the data were processed

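RNA was measured in 24 libraries, 3 in each of 8 groups of genotype and diet. The authors pseudoaligned 100 bp single-end reads to the BDGP6.32 transcriptome with kallisto 0.46.2 and scaled the gene counts with DESeq2 1.24.0, and the deposited signal values are these normalized counts. FPKM values were also computed by the authors and deposited for the same libraries; they served only to compare levels between genes. The deposited columns of fold changes and p-values were not used. Because 78.4% to 81.5% of low values were whole multiples of a step (tolerance 0.01), reads were not recovered and no count model was fitted.

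For each comparison, limma 3.58.1 (R 4.3.3) was fitted to log2(normalized count + 1) of all genes that averaged 10 or more normalized counts in its libraries, with a trend in the prior variance, two-sided, over 6 libraries or, for interactions, 12. P-values were adjusted by Benjamini-Hochberg over all genes tested. The script was tested on simulated data. Positions came from the BDGP6.54 annotation. The 9 genes and all lists were chosen with earlier results of these data known. The genes named are the 9, at most 4 other pathway genes per comparison with the smallest adjusted p, and the 5 genes most like FASN1 and like SREBP; SCAP, S1P, S2P and CG1946 were named after their values were seen.

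Replicate numbers were checked for pairing by the correlation of deviations from group means. All 3 correlations exceeded 0.1 in 2 of 28 pairs of groups, among them Gcn2 Yaa with Gcn2 -M (0.27, 0.48 and 0.23), for which the blocked value is given where it changed a call. Replicate 2 was ovary-rich in both of these groups. For Gcn2 Yaa with Gcn2 -R, whose ovary-rich replicates differ in number, the correlations were -0.50, -0.49 and 0.41. Alternatives were a single fit of all libraries, scaling to a common sum, a pseudocount of 10, no filter on low values, a replicate block, omission of the ovary-rich libraries or of each library in turn, and the separately normalized tables of 6 libraries.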

Additional observations from a re-analysis of the deposited data

Results flagged for a closer look

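The effect of a diet differed between genotypes, by the interaction test of limma, for 5 of the 9 genes on -R and for 4 on -M. Of all genes tested, 21.5% were called on -R and 6.93% on -M. On -R the log2 diet effect in mutants minus that in wDah flies was -1.34 for FASN1, -1.09 for Desat1, -0.55 for ACC, -0.35 for SREBP and 1.24 for mdy. On -M it was 0.77 for ACC, 0.68 for FASN1, 0.63 for Acsl and 0.43 for mdy. The groups of 3 libraries were too small for a test of single outlying libraries.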

How the results depend on the processing

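Of 68 calls of the 9 genes over the 15 comparisons, 50 held in every setting and 59 held whichever single library was omitted. The single fit of all 24 libraries moved the genes called from 8 to 4 on -R in wDah flies and from 0 to 1 for the interaction with -All. Rescaling moved them from 8 to 5 on -R in wDah flies and from 0 to 1 between -R and -M in wDah flies. With the replicate block 1 of 3 genes stayed called between genotypes on Yaa. Without the ovary-rich libraries the genes called between genotypes moved from 3 to 7 on Yaa, from 6 to 8 on -R and from 3 to 4 on -M. In mutants they moved from 4 to 6 on -R, from 6 to 8 on -M and from 6 to 8 between -R and -M. For the interactions they moved from 5 to 8 with -R and from 4 to 5 with -M. With 1 library left out, 2 to 5 genes were called on -R in mutants, 1 to 7 between genotypes on Yaa, 0 to 1 for the interaction with -All and 0 to 1 between -R and -M in wDah flies. Rescaling turned the log2 fold change of Acsl on -R in wDah flies to -0.0038 and that of SREBP on -All in mutants to -0.034. In mutants on -R, leaving out 1 library moved ACC between -0.13 and 0.050 and ATPCL between -0.11 and 0.022. Calls over all genes are given above for rescaling, but not for the single fit, the replicate block or any omission of libraries. The moves of the counts in those settings thus have no background beside them. The causes of the shifts in this section were not tested. The files hold no raw counts, and 3 libraries per group limit the differences that could be called.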

Other observations

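A pair of other pathway genes, chosen after their values were seen, fell with diet. FASN3, the remaining fatty acid synthase, held 923, 865 and 710 normalized counts on Yaa and 495, 219 and 154 on -All in wDah flies, a log2 fold change of -1.69 (limma adjusted p = 0.011). In mutants it held 1494, 3110 and 1131 normalized counts on Yaa and 240, 415 and 266 on -All, a log2 fold change of -2.54 (limma adjusted p = 0.0050). Its highest mutant Yaa library was the ovary-rich replicate 2, as for FASN2. CG1946, which resembles Dgat2, held 77.5, 79.2 and 85.3 normalized counts on Yaa and 14.1, 17.9 and 28.3 on -R in wDah flies. In mutants it held 53.9, 84.0 and 81.8 normalized counts on Yaa and 17.3, 0.89 and 0.88 on -R, so that its level on -R rested on about 1 read in each of replicates 2 and 3.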
